A study of Danio rerio with 19 samples.

Results

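The H3K9me3 regions of zebrafish chromosome 18 were taken from the peak lists of brain chromatin, 1 list for each of 6 groups. The members are all peaks that the lists place on this chromosome, 10023 of 242100 over the 6 lists. Chromosome 18 was chosen by its measured density, the number of peaks per Mb, which was the highest in several lists, so that density and what follows directly from it are given as a description with no test. It held 2834 of 70317 peaks for 4 M ZT4, 2331 of 55874 for 4 M ZT16, 464 of 8755 for 12 M ZT16, 850 of 19177 for 20 M ZT4 and 3544 of 87948 for 20 M ZT16. In the 12 M ZT4 list it held 0 of 29 peaks, so that 5 lists describe the chromosome.

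The fish were wild-type animals of the SAT strain aged 4, 12 or 20 months (M), kept in equal phases of light and dark for a week, and their brains were taken at ZT4, in the light, or ZT16, in the dark. Each group had 3 libraries made with an antibody against H3K9me3, 18 in all, and the GFP antibody gave 1 further library. The authors called peaks on each triplicate together. The lists therefore hold no value for a single library, no read count and no spread between replicates, and differences between lists have no test. The number of fish behind a library is not given in the sources used here, and whole brain mixes neurons with glia and other cells.

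H3K9me3, histone H3 trimethylated on lysine 9, is written by methyltransferases of the SUV39H and SETDB1 families and is bound by HP1 proteins. It marks constitutive heterochromatin at repeats near centromeres and telomeres, and also facultative heterochromatin, in which silenced genes and transposable elements are packed. In mammals the PERIOD complex of the circadian clock contains an H3K9 methyltransferase, and the study asked whether the mark differed between times of day and ages.

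Chromosome 18 had the highest density of the 25 numbered chromosomes in 4 of the 5 lists and ranked 2 for 4 M ZT4. Density was counted over the 50923616 bp up to the last peak, 3.80% of the summed span of the numbered chromosomes, and is compared with the 23 chromosomes other than 18 and 4. Chromosome 4 was left out of the comparison, since its density lay outside the range of those 23 in 4 of the 5 lists. In the 4 M ZT4 list chromosome 18 had 55.7 peaks per Mb (Poisson 95% interval 53.6 to 57.7) against a median of 50.2 on the others, and only chromosome 4, at 59.9, had more. In the 4 M ZT16 list it had 45.8 (43.9 to 47.7) against 40.7. These intervals and all others below cover counting error only, since neighbouring peaks are not independent.

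The short lists showed the larger ratios. In the 12 M ZT16 list chromosome 18 had 9.11 peaks per Mb (8.30 to 9.98), which was 1.5 times the median of 6.08. Of its 464 peaks in this list, 135 scored 20 or more, and over these the ratio was 1.32. In the 20 M ZT4 list it had 16.7 (15.6 to 17.9), 1.24 times the median of 13.5. In the longest list, for 20 M ZT16, it had 69.6 (67.3 to 71.9), 1.09 times the median of 63.8, and the ratios at 4 M were 1.11 at ZT4 and 1.12 at ZT16.

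The distance to the next chromosome was small in the long lists. In the 4 M ZT16 list chromosome 14 followed with 45.5 peaks per Mb, and for 20 M ZT16 chromosome 25 followed with 68.6. In the 12 M ZT16 list the next was chromosome 12 with 7.85, and for 20 M ZT4 it was chromosome 16 with 15.2. Without the first and last 5 Mb of every chromosome, chromosome 18 ranked 6 for 4 M ZT4, 2 for 4 M ZT16 and 12 M ZT16, 1 for 20 M ZT4 and 3 for 20 M ZT16.

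**Figure D1:**
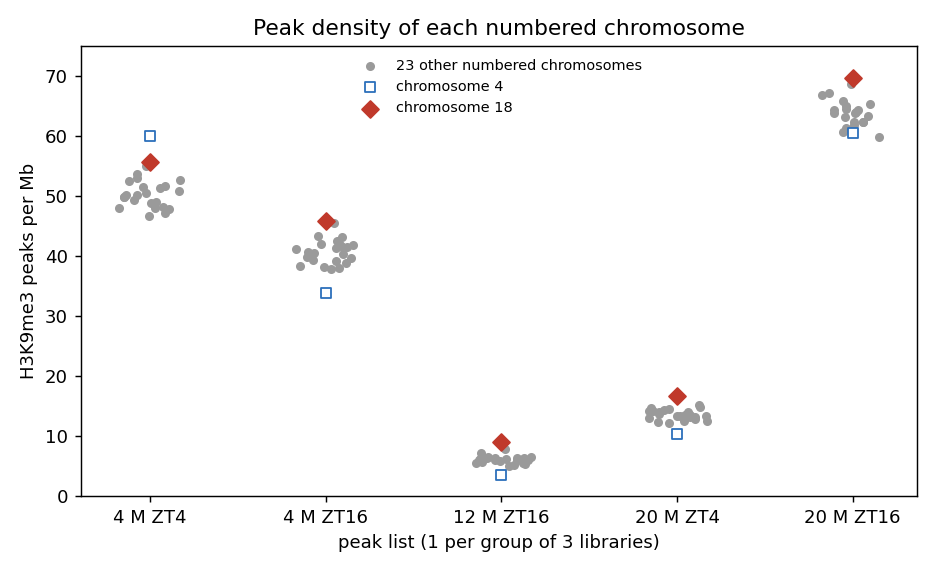
H3K9me3 peaks per Mb on chromosome 18, on chromosome 4 and on the 23 other numbered chromosomes, for the 5 lists with peaks on chromosome 18. Chromosome 18 lies above the 23 others in each list, from 9.11 peaks per Mb for 12 M ZT16 to 69.6 for 20 M ZT16. For 4 M ZT4 chromosome 4 lies above it, at 59.9 peaks per Mb.

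The excess was uneven along the chromosome. In windows of 1 Mb, of which 50 were whole, 8 held more peaks for 4 M ZT4 than the 90th percentile of the 1201 windows of the other chromosomes, which is 16% against 8.83% of those windows. The numbers were 9 (18%, others 8.66%) for 4 M ZT16, 10 (20%, others 9.33%) for 12 M ZT16, 12 (24%, others 8.58%) for 20 M ZT4 and 8 (16%, others 9.58%) for 20 M ZT16. These counts restate the density that chose the chromosome and are a description.

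The windows above the median of the others were counted as well. These windows numbered 31 for 4 M ZT4 (62%, others 50%) and 31 for 4 M ZT16 (62%, others 48.2%). They numbered 30 for 12 M ZT16 (60%, others 46.3%), 26 for 20 M ZT4 (52%, others 44.3%) and 32 for 20 M ZT16 (64%, others 48.3%). The share was higher than on the other chromosomes in each list.

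The same windows were full in list after list. On chromosome 18, 6 windows passed the 90th percentile in all 5 lists, 12% against 3.08% of the windows elsewhere, and 35 passed it in none. On the GRCz10 assembly, which all positions here refer to, they begin at 2000001, 4000001, 28000001, 42000001, 47000001 and 48000001. Over the 50 windows the peak numbers of any pair of lists had a Spearman rho of 0.75 to 0.96. The short lists lie almost wholly within the long ones, so these values are a description.

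The window chr18:47000001-48000000 was the fullest when each list was scaled to its median window. It held 90 peaks for 4 M ZT4, 78 for 4 M ZT16, 41 for 12 M ZT16, 44 for 20 M ZT4 and 109 for 20 M ZT16. The 41 peaks for 12 M ZT16 exceeded every one of the 1201 other windows, whose highest count was 34 and whose median was 4. The window at chr18:42000001-43000000 followed, with 103, 88, 26, 44 and 119 peaks in the same order of lists, and chr18:48000001-49000000 had 84, 75, 29, 42 and 107.

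The emptiest windows lay close to each other. The window chr18:21000001-22000000 held 29 peaks for 4 M ZT4, 26 for 4 M ZT16, 1 for 12 M ZT16, 6 for 20 M ZT4 and 35 for 20 M ZT16. The window chr18:17000001-18000000 held 30, 25, 1, 6 and 37, and chr18:20000001-21000000 held 35, 27, 2, 5 and 39. These stretches were nearly empty in the 12 M ZT16 list.

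Each chromosome was then divided into 10 bins of equal length, so that chromosome 18 could be set against the same position on the others. In bin 10, from 45831255 to the end, chromosome 18 was the densest of the 24 chromosomes in all 5 lists. Its density there was 67.7 peaks per Mb for 4 M ZT4 (others' median 54.5), 57.1 for 4 M ZT16 (44.7), 23.8 for 12 M ZT16 (10.7), 32.2 for 20 M ZT4 (19.7) and 90.3 for 20 M ZT16 (72.2). Bins 6 and 7, from 25461809 to 35646531, also ranked 1 or 2 in every list. Bin 6 of the 12 M ZT16 list had 7.66 peaks per Mb against a median of 2.88, and bin 7 had 8.64 against 3.37.

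Other stretches were ordinary or low. Bin 4, from 15277085 to 20369446, ranked between 15 and 22 of 24, with 38.3 peaks per Mb for 4 M ZT4 against a median of 45.2. Bin 8 for 12 M ZT16 was the lowest of the 24 chromosomes, with 13 peaks and 2.55 per Mb against a median of 4.61. Summed over bins, the net excess over the medians was 296.9 peaks for 4 M ZT4, 287 for 4 M ZT16, 178 for 12 M ZT16, 173 for 20 M ZT4 and 323 for 20 M ZT16.

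The short and long lists differed in the share of that net excess by position. Bins 6 and 7 together held 60.9% of it for 4 M ZT4, 47.6% for 4 M ZT16 and 51.2% for 20 M ZT16, but 28.7% for 12 M ZT16 and 32.6% for 20 M ZT4. The last 2 bins held 25.5% for 4 M ZT4, 29.3% for 4 M ZT16 and 33.0% for 20 M ZT16, against 51.3% for 12 M ZT16 and 53.4% for 20 M ZT4. In peaks, the excess of the last 2 bins ran from 75.8 for 4 M ZT4 to 107 for 20 M ZT16. It was 91.2 for 12 M ZT16 and 92.2 for 20 M ZT4, within that range. In bins 6 and 7 it was 51.1 and 56.3 in these short lists, against 137 to 181 in the long ones. Over the first 80% of its length alone, chromosome 18 still ranked 2, 2, 1, 1 and 2 of 24 in the order 4 M ZT4, 4 M ZT16, 12 M ZT16, 20 M ZT4 and 20 M ZT16.

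**Figure D2:**
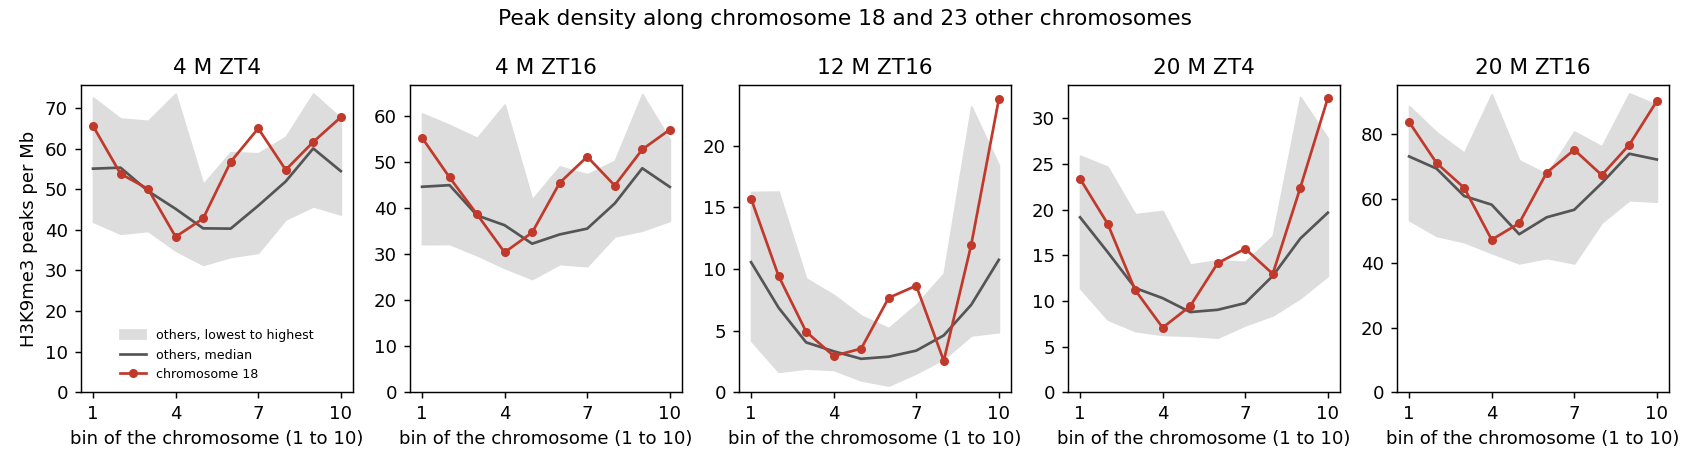
Peaks per Mb in 10 bins of equal length along chromosome 18 and along the 23 other chromosomes, for each of the 5 lists. In bin 10 chromosome 18 lies above all others, at 23.8 peaks per Mb against a median of 10.7 for 12 M ZT16, and in bin 4 it lies below the median in every list.

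Most peaks of chromosome 18 were shorter than a nucleosome's DNA. The median length was 73 bp for 4 M ZT4, 70 for 4 M ZT16, 139 for 12 M ZT16, 84.5 for 20 M ZT4 and 73 for 20 M ZT16. The medians of the other chromosomes were 72, 69, 112, 74 and 73 bp, so that the medians differed mainly in the 2 short lists. For 20 M ZT4 the others ranged from 66 to 85 bp, and chromosome 18 ranked 3 of 25. The upper quartile was also higher at 4 M, with 97 bp at ZT4 and 97.5 at ZT16 against medians of 91 and 88 on the others. Peaks under 150 bp made up 84.0% of the members for 4 M ZT4 (others' median 86.5%) and 52.8% for 12 M ZT16 (59.6%). Chromosome 18 ranked 24, 25, 25, 23 and 16 of 25 in this share, in the order of lists given for the median length.

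Long peaks were more frequent than on most chromosomes. Peaks over 500 bp were 88 of 2834 for 4 M ZT4, 3.11% (2.53 to 3.81), against a median of 1.87% and a range of 1.23 to 2.69% on the others. They were 82 for 4 M ZT16, 3.52% against 2.06%, and 113 for 20 M ZT16, 3.19% against 2.30%. In the 20 M ZT4 list they were 59, 6.94% against 4.70%, and for 12 M ZT16 41, 8.84% against 7.27%. Chromosome 18 ranked 1 of 25 in 3 of these lists and 2 for 4 M ZT4 and 12 M ZT16. The bases covered per Mb, which combine number and length, were 1.21, 1.25, 1.68, 1.42 and 1.16 times the other chromosomes' median in the order 4 M ZT4, 4 M ZT16, 12 M ZT16, 20 M ZT4 and 20 M ZT16.

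Each peak carries a score that the authors' peak caller wrote, and a score was read only as a percentile of its own list. The median percentile of the members was near the middle of each list, at 53.0 for 4 M ZT4, 51.7 for 4 M ZT16, 47.8 for 12 M ZT16, 53.4 for 20 M ZT4 and 52.8 for 20 M ZT16. The upper end differed in the long lists. For 4 M ZT4, 13.1% of the members (11.9 to 14.4) were in the top 10% of the list, against a median of 9.42% and a highest share of 12.0% on the other chromosomes. The shares were 13.5% for 4 M ZT16 and 12.6% for 20 M ZT16, again ranked 1 of 25. In the 12 M ZT16 list the share was 9.91% (7.52 to 13) and for 20 M ZT4 9.18% (7.42 to 11.3), ranked 15 and 12.

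Peaks were longer, and in the long lists a larger share of them scored high, toward the end of the chromosome. In the last 20% of its length, chr18:40738893-50923616, 149 of 659 peaks for 4 M ZT4 were in the top 10% of scores, 22.6% (19.6 to 26), against 10.2% (9.0 to 11.6) in the first 80%. The last 20% of the other chromosomes had a median of 13%. The shares were 23.8% and 10.2% for 4 M ZT16, and 20.2% and 10.2% for 20 M ZT16. In the short lists the share was not higher there, with 9.34% and 10.3% for 12 M ZT16 and 7.55% and 9.97% for 20 M ZT4, where the intervals overlapped.

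Length showed the contrast in every list. The median in the last 20% against the rest was 79 and 72 bp for 4 M ZT4, 79.5 and 69 for 4 M ZT16, 194 and 111 for 12 M ZT16, 139.5 and 73 for 20 M ZT4, and 81 and 71 for 20 M ZT16. In the 12 M ZT16 list the interval of the median was 165 to 230 bp in the last 20% and 98 to 131 in the rest. Of the peaks over 500 bp, the last 20% held between 47.8% for 20 M ZT16 and 57.6% for 20 M ZT4. Of all members it held between 23.3% for 4 M ZT4 and 39.2% for 12 M ZT16. The other chromosomes had medians of 22.7% and 33.1% in these lists, and chromosome 18 ranked 10 and 5 of 24. Other chromosomes also had longer peaks at this end, with a median of 139 bp for 12 M ZT16 and 89 for 20 M ZT4, and chromosome 18 ranked 1 of 24 in both.

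**Figure D3:**
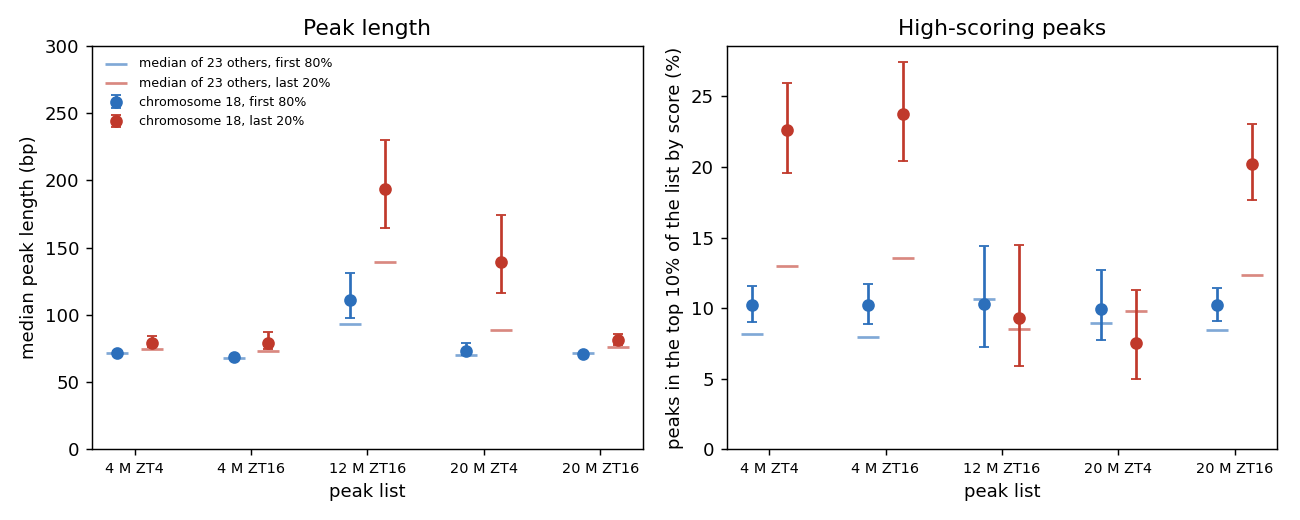
Median peak length in bp and the share of peaks in the top 10% of their list by score, for the first 80% and the last 20% of chromosome 18, with 95% intervals, beside the medians of the 23 other chromosomes. In the 4 M ZT4 list the share was 22.6% in the last 20% and 10.2% in the rest, and for 12 M ZT16 the median length was 194 and 111 bp.

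Single peaks show how score and length were related. The 2 highest-scoring peaks for 4 M ZT4 were chr18:6643281-6643802, 522 bp at percentile 99.98, and chr18:11605211-11605870, 660 bp at percentile 99.91. The first was also listed in 12 M ZT16 with 476 bp, but at percentile 69.6 there, and for 20 M ZT4 with 497 bp at percentile 65.9. Both sites were in all 5 lists with most of their length, while their percentiles differed.

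In the 20 M ZT16 list the highest scores were at chr18:42479791-42480612, 822 bp at percentile 99.97, and chr18:34912173-34913039, 867 bp at percentile 99.95. The former was 705 bp long in the 12 M ZT16 list, at percentile 47.8. The top peaks for 12 M ZT16 were short, chr18:2123840-2123911 and chr18:887399-887470, both of 72 bp, at percentiles 99.75 and 99.69. In the 20 M ZT4 list they were chr18:47945077-47945227, of 151 bp, and chr18:25368895-25368983, of 89 bp.

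The longest peaks also ranked differently between lists. For 4 M ZT4 and ZT16 the longest was at chr18:33055548-33056805, with 1258 and 1260 bp, and for 12 M ZT16 and 20 M ZT4 this region was split into a pair of peaks. The longest for 12 M ZT16, chr18:43084305-43085419, spanned 1115 bp at percentile 39.5, and in the 4 M ZT4 list the region had 1211 bp at percentile 99.3. The longest for 20 M ZT16, chr18:49584569-49586039, spanned 1471 bp at percentile 21.7 and was in no other list. Over all members the Spearman rho of length and score was 0.65 for 4 M ZT4, 0.59 for 4 M ZT16 and 0.46 for 20 M ZT16, but 0.18 for 20 M ZT4 and 0.07 for 12 M ZT16.

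The lists were nested on chromosome 18. Sharing means an overlap of 1 bp or more with any peak of the other list. Of the 464 peaks for 12 M ZT16, 464 were shared with 4 M ZT4 (100%, whole list 99.4%), and 451 with 20 M ZT4 (97.2%, whole list 96.4%). Of the 850 peaks for 20 M ZT4, 849 were shared with 20 M ZT16 (99.9%, whole list 98.9%), and of the 2331 for 4 M ZT16, 2317 with 4 M ZT4 (99.4%, whole list 99.2%). These shares were close to those of the whole lists, and the shorter list was nearly contained in the longer one.

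In the other direction the shares were lower, as the size of the lists sets their upper limit. Between the times at the youngest age, ZT16 peaks overlapped 2315 of the 2834 at ZT4, 81.7% (80.2 to 83.1), against 78.7% of the whole list. The 23 other chromosomes ranged from 78.6 to 82.0% with a median of 80.6%, and chromosome 18 ranked 4. At 20 M, 847 of the 3544 ZT16 peaks were shared with ZT4, 23.9% (22.5 to 25.3), against 21.6% and at most 23.5% on those chromosomes. Between the ages, 836 of the 4 M ZT4 peaks were shared with 20 M ZT4, 29.5% (27.8 to 31.2), against 26.7% and at most 29.0%. Both shares with 20 M ZT4 largely restate the density of that list, in which chromosome 18 ranked 1 of 25, and are a description. At ZT16, 2335 of the 20 M peaks were shared with 4 M, 65.9% (64.3 to 67.4), against 63.4% of the whole list and up to 68.2% on another chromosome.

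Sharing with the shortest list stood farther from the whole list. With 12 M ZT16, 448 of the 4 M ZT4 peaks were shared, 15.8% (14.5 to 17.2), against 12.1% of the whole list. Of the 20 M ZT4 peaks 442 were shared with it, 52.0% (48.6 to 55.3), against 43.4%. Of the 20 M ZT16 peaks 452 were, 12.8% (11.7 to 13.9), against 9.74%. Chromosome 18 ranked 1 of 25 in each, as it did in the density of the 12 M ZT16 list, which enters these shares. The low shares depend on the lists' sizes and on the score: cut to equal size, 71.9% of the 4 M ZT4 peaks and 65.4% of the 20 M ZT4 peaks were shared with 12 M ZT16, and with scores of 30 or more 0.863% and 3.77% were. Between the times at 20 M the share became 71.9% with equal sizes, and between the ages at ZT4 72.1%.

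Sharing with the 2 short lists was higher toward the end of the chromosome. Of the 4 M ZT4 peaks in the last 20%, 41.4% (37.7 to 45.2) were shared with 20 M ZT4, against 25.9% (24.1 to 27.8) in the rest. The corresponding values with 12 M ZT16 were 26.4% (23.2 to 29.9) and 12.6% (11.3 to 14.1). The last 20% of the other chromosomes had medians of 31.4% and 16.8% and highest values of 43.2% and 28.3%. Chromosome 18 ranked 2 of 24 in both, and the densities of the short lists enter these shares. Between the long lists the values differed less, and not in one direction. Of the 20 M ZT16 peaks 2810 were shared with 4 M ZT4 (79.3%, whole list 77.3%), 76.9% in the last 20% and 80.1% in the rest. Of the 4 M ZT4 peaks 2791 were shared with 20 M ZT16 (98.5%, whole list 96.1%), 98.2% in the last 20% and 98.6% in the rest, and for 20 M ZT16 with 4 M ZT16 the values were 66.0% and 65.8%. For 4 M ZT4 with 4 M ZT16 they were 84.4% and 80.9%. Over the 50 windows, the number of 4 M ZT4 peaks and the percent of them shared with 20 M ZT4 had a Spearman rho of 0.55, and with 12 M ZT16 of 0.57. The medians over the other chromosomes were 0.31 and 0.35. With 20 M ZT16 the rho was -0.28, and both axes use the same 4 M ZT4 peaks.

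**Figure D4:**
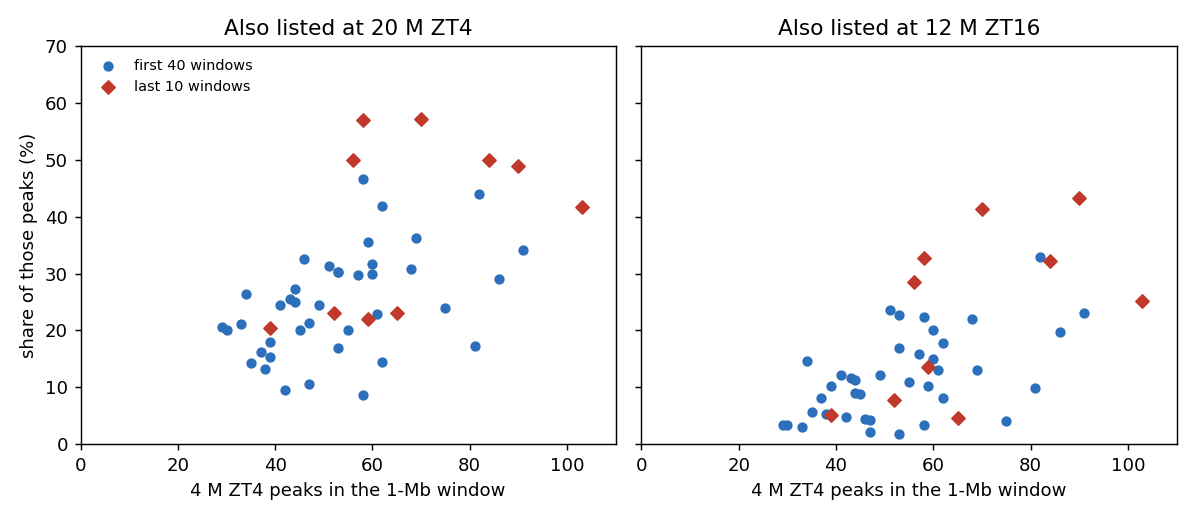
Number of 4 M ZT4 peaks in each of the 50 windows of 1 Mb on chromosome 18 against the percent of them that overlapped a peak of the 20 M ZT4 or the 12 M ZT16 list. Fuller windows had the larger shares, with a Spearman rho of 0.55 and 0.57.

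Merged over the lists, the members formed 3579 regions of 90523 in the genome. A set of 1464 (40.9%, all regions 40.02%) was held by 4 M ZT4, 4 M ZT16 and 20 M ZT16 together, the largest class. Its share was thus close to that of all regions. Regions in 1 list numbered 783, 21.9% (20.6 to 23.3), against 25.2% of all regions and a range of 19.5 to 26.4% on the 23 other chromosomes. Of the 783, 729 were in the 20 M ZT16 list, 20.4% of the regions here against 21.8% of all regions. A further 42 were for 4 M ZT4 (1.17%, all regions 2.94%), 11 for 4 M ZT16 (0.307%, all regions 0.285%) and 1 for 20 M ZT4 (0.0279%, all regions 0.156%). Regions in all 6 lists numbered 0, since the 12 M ZT4 list had no peak here.

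The regions in 5 lists numbered 435, 12.2% (11.1 to 13.3), against 9.07% of all regions. The other chromosomes ranged from 7.12 to 11.1%. A region in 5 lists needs a 12 M ZT16 peak, and 451 of the 464 members of that list, 97.2%, lay in these regions. This share therefore largely restates the density of the 12 M ZT16 list and is a description. Of the 435, 171 lay in the last 20% of the chromosome, 39.3%, where 24.0% of all its regions lay. This largely restates the placement of the 12 M ZT16 list, which had 39.2% of its members there. On the other chromosomes a median of 33.1% and at most 48.4% of that list's peaks lay in the last 20%. The median length of the 435 regions was 242 bp, against 58 bp for the regions in 1 list and 72 bp for those in 3.

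**Figure D5:**
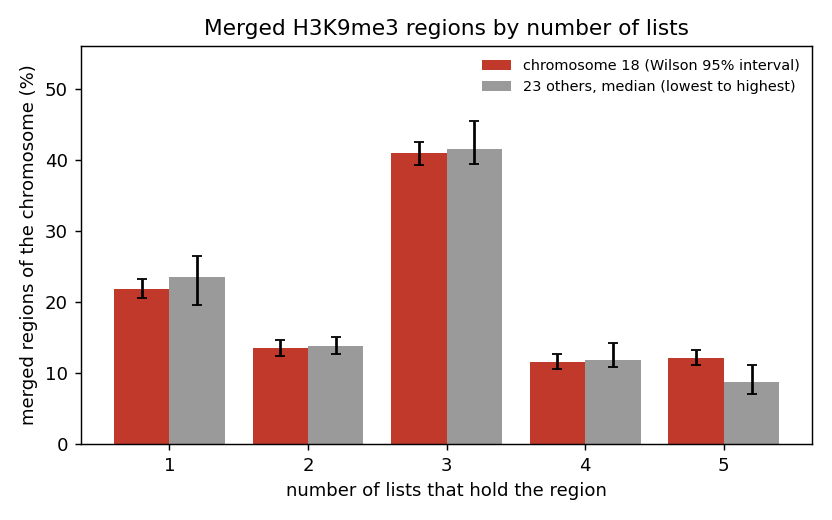
Share of the merged H3K9me3 regions held by 1 to 5 of the lists, for chromosome 18 with Wilson 95% intervals and as the median of the 23 other chromosomes, with whiskers from lowest to highest. The regions in 5 lists made up 12.2% on chromosome 18 against a median of 8.78%, and those in 1 list 21.9% against 23.6%. The share in 5 lists largely restates the density of the 12 M ZT16 list.

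At these sites the peaks differed in length between lists. In 408 of the 435 regions every list had 1 peak, and the median lengths were 220 bp for 4 M ZT4, 210.5 for 4 M ZT16, 137.5 for 12 M ZT16, 162 for 20 M ZT4 and 222 for 20 M ZT16. The 12 M ZT16 peak was the shortest of the 5 in 382 regions, 93.6%. The 2 shortest lists thus had the shortest peaks at the same sites. The part of depth or enrichment in it was not tested, since the lists give neither.

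The numbers of members differed between the times and the ages in opposite directions. As a log2 ratio of peak numbers, ZT16 over ZT4 was -0.28 at 4 M (whole list -0.33) and 2.06 at 20 M (whole list 2.2). The ratio of 20 M over 4 M was -1.74 at ZT4 (whole list -1.87) and 0.60 at ZT16 (whole list 0.65). At 20 M all 50 windows held more peaks at ZT16 than at ZT4, and at 4 M 0 windows did. The shorter list of each pair was nearly contained in the longer one, so these window counts largely restate list size and are a description. Ratios on chromosome 18 were nearer to 0 than in the whole lists in each of these comparisons. Between the times at 4 M the ratio lay within the range of the 23 other chromosomes, -0.34 to -0.28. So did that between the ages at ZT16, where the range was 0.56 to 0.72. The ratios with the 20 M ZT4 list lay outside the range, and they largely restate the density of that list. Each pair shares a list with another, and a region that a list lacks may still carry the mark below the level of a call.

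Chromosome 18 carries 23 loci whose transcripts the study listed as diurnal or age-related in expression, 7 annotated and 16 unannotated. Only their positions were used. With 3 kb on each side, 12 had a peak for 4 M ZT4, 11 for 4 M ZT16, 0 for 12 M ZT16, 2 for 20 M ZT4 and 15 for 20 M ZT16. Of the 7 annotated loci these numbers were 5, 4, 0, 0 and 6. The loci differ in length, and longer loci have more room for a peak. Over all loci the numbers followed the order of the lists by size. No share of other loci or of stretches of like length stands beside them, so they are a description. With no flank, 5 loci had a peak for 4 M ZT4, 4 M ZT16 and 20 M ZT16 alike.

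The clock gene arntl2, which encodes a paralogue of the activator BMAL1, had 1 peak inside the locus at chr18:15604577-15604657 for 4 M ZT4, at percentile 68.3, and 1 in the flank at chr18:15644426-15644488, and both were also listed in 4 M ZT16 and 20 M ZT16. The bhlhe41 gene, a transcriptional repressor of the clock, had none inside, and 1 in the flank at chr18:16143890-16143938 for 4 M ZT4, at percentile 10.8, and again for 20 M ZT16. The gpib locus, for a glucose-6-phosphate isomerase of glycolysis, had a peak at chr18:513551-513641 for 4 M ZT4, at percentile 88.6, also listed in 4 M ZT16 and 20 M ZT16. A further peak inside it, chr18:521481-521986, of 506 bp at percentile 14.5, was listed only for 20 M ZT16.

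The ddb2 gene, whose product recognises ultraviolet damage in DNA, had 1 peak in the flank, chr18:20477651-20477727 for 4 M ZT4, in the same 3 lists. The mt2 gene, for a metal-binding metallothionein, had none in any list. The locus si:ch211-132b12.7 had peaks only in its flank, 2 for 4 M ZT4, 1 for 4 M ZT16 and 2 for 20 M ZT16, and si:dkey-238o13.4 had 1, for 20 M ZT16. The unannotated loci with the most peaks were XLOC_025552 and XLOC_027098. The former had 6 for 4 M ZT4, 6 for 4 M ZT16, 1 for 20 M ZT4 and 8 for 20 M ZT16. The latter had 6, 6, 1 and 9. They span 110407 and 159480 bp, against a median of 1175.5 bp over the 16 unannotated loci, and so have more room for a peak.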

How the data were processed

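Brain H3K9me3 ChIP-seq of 6 groups was analysed as 1 peak list per group. The authors aligned single-end reads to the GRCz10 assembly using Bowtie2, and MACS2 (version 2.2.1 in the submitters' processing notes) was run on each triplicate. The deposited unit is a score per peak, a whole number with no named scale and a lowest value of 10. If it is on the scale that MACS2 usually writes, this lowest score is looser than the FDR that the methods state, so the threshold behind the lists is uncertain. It bears most on the 12 M ZT16 list, where 135 of 464 members scored 20 or more. The control library of the calls is not given in the sources used here. The methods state how many reads were sequenced but not for which library, and the lists hold no read counts, so the depth of each library is unknown.

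Positions were counted from 1, peaks were placed by midpoint, and 1 bp of overlap made a peak shared. Shares carry Wilson 95% intervals, numbers exact Poisson intervals and medians order-statistic intervals. The members and lists were chosen with earlier results of these data known. Named were the 3 fullest and 3 emptiest windows, the 2 highest-scoring and 2 longest peaks of each list (a selection of them is printed), all annotated loci and the unannotated ones with the most peaks. The split at the last 20%, the count of windows full in every list and leaving out the last 20% were chosen after seeing the data. The tools were matplotlib 3.10.9, scipy 1.17.1, pandas 2.3.3 and numpy 2.4.6 under Python 3.11.15. The overlap code was tested on simulated data and checked against bedtools 2.31.1, with 0 of 20 pairs differing. No genome of GRCz10 was used, so sequences, gap-free lengths and gene features were not analysed here.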

Additional observations from a re-analysis of the deposited data

Results flagged for a closer look

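The number of chromosome 18 peaks at ZT16 relative to ZT4 had opposite directions at the youngest and the oldest age. The log2 ratio was -0.28 at 4 M (whole list -0.33) and 2.06 at 20 M (whole list 2.2). The ratio of 20 M to 4 M had opposite directions at the 2 times. It was -1.74 at ZT4 (whole list -1.87) and 0.60 at ZT16 (whole list 0.65). The whole lists thus had the same directions. With 1 list per group, neither difference was tested.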

How the results depend on the processing

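Of 116 values under alternatives, 79 stayed within the interval of the reported value (for loci, within 1.5 times) and 37 moved. A change of direction was not scored. The cause of the moves was not tested. With a score of at least 30 the density ratio became 1.34 for 20 M ZT4. The median length became 86 bp for 12 M ZT16, where 24 members were left, and 71 bp for 20 M ZT16. At a score of 20 or more the density ratio became 1.32 and the median length 122 bp for 12 M ZT16. Without the first and last 5 Mb the ratio was 1.27 for 12 M ZT16 and 1.13 for 20 M ZT4, and chromosome 18 ranked 6, 2, 2, 1 and 3 of 25 in the order 4 M ZT4, 4 M ZT16, 12 M ZT16, 20 M ZT4 and 20 M ZT16. Without the last 20% of every chromosome the ratio was 1.13 for 20 M ZT4, and the median length 111 bp for 12 M ZT16, 73 bp for 20 M ZT4 and 71 bp for 20 M ZT16. Merging peaks within 1 kb gave a median of 76 bp for 4 M ZT4 and 76 bp for 20 M ZT16.

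With lists of equal size, 92.3% of the 4 M ZT4 peaks were shared with 4 M ZT16, 72.1% with 20 M ZT4 and 71.9% with 12 M ZT16, 71.9% of the 20 M ZT16 peaks with 20 M ZT4 and 93.2% with 4 M ZT16, and 65.4% of the 20 M ZT4 peaks with 12 M ZT16. By construction these lists hold fewer and higher-scoring peaks of the longer list. With a score of at least 30, 22.6% of the 4 M ZT4 peaks were shared with 20 M ZT4 and 0.863% with 12 M ZT16, 19.8% of the 20 M ZT16 peaks with 20 M ZT4 and 71.7% with 4 M ZT16, and 3.77% of the 20 M ZT4 peaks with 12 M ZT16. At a score of 20 or more the values were 70.2% (20 M ZT16 with 4 M ZT16), 4.79% (4 M ZT4 with 12 M ZT16) and 16.4% (20 M ZT4 with 12 M ZT16). A reciprocal overlap of 50% gave 22% (20 M ZT16 with 20 M ZT4), 27.7% (4 M ZT4 with 20 M ZT4), 63.3% (20 M ZT16 with 4 M ZT16), 12.5% (4 M ZT4 with 12 M ZT16) and 48.2% (20 M ZT4 with 12 M ZT16). Without a flank, 5 loci had a peak for 4 M ZT4, 5 for 4 M ZT16 and 5 for 20 M ZT16, and with 10 kb, 2 for 12 M ZT16 and 6 for 20 M ZT4.

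No paired analysis was possible because each list pools its triplicate, which also left no replicate to leave out. The density over gap-free length was not run, since no GRCz10 genome was used. Numbers of peaks move with depth and enrichment, which the lists do not record.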

Other observations

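Peaks over 500 bp that were listed only at 20 M ZT16 scored low. On chromosome 18 they numbered 30 of 113, 26.5% (Wilson 95% interval 19.3 to 35.4), against 31.9% on the 23 other chromosomes. Their median percentile within the list was 12.6 and the highest was 21.7, whereas the 83 long peaks shared with another list had a median percentile of 98.6. The 23 other chromosomes showed the same, with medians of 13.3 and 98.2. Members of any length for 20 M ZT16 that were not shared with 4 M ZT4 had a median percentile of 14.1. Of the 30, 12 lay in the last 20% of the chromosome, 40%, against 28.9% for such peaks on the 23 other chromosomes. Of all 113 long peaks 47.8% lay there. The comparison of long peaks was chosen after the values had been seen.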
